A study of Mus musculus with 6 samples.

Results

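Astrocytes of the pons and medulla were described in 3 single-nucleus libraries of the chronic intermittent hypoxia (CIH) group and 3 of the room-air (normoxia) group. A nucleus was taken as an astrocyte when its unique molecular identifiers (UMIs, each standing for 1 captured RNA molecule) for Aqp4, Slc7a10, Slc39a12, Slc6a11, Gja1 and Aldh1a1 summed to at least 3, with at least 2 of these genes detected. It also needed at least 3 UMIs of Slc1a2, at most 1 of Mog and Mag together, fewer than 8 of Meg3 and at most 1 of Flt1, which leaves out oligodendrocytes, neurons and endothelial cells. Nuclei were kept if they had 500 genes or more and no more than 5% of UMIs from mitochondrial genes, and 843 of the 40139 kept met the rule. CIH libraries 1 to 3 gave 46, 62 and 497 astrocytes, and normoxia libraries 1 to 3 gave 67, 75 and 96. Just inside the limits were 40 nuclei with a marker sum of 3 and 91 with a Slc1a2 count of 3, of which CIH library 3 gave 32 and 60. Just outside were 37 nuclei with a marker sum of 2 and 93 with a Slc1a2 count of 2, of which CIH library 3 gave 24 and 58.

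Astrocytes take up the glutamate, GABA and glycine that neurons release, hold extracellular potassium and pH steady, and link blood vessels to neurons through end-feet rich in the water channel Aqp4. In the medulla they are known to react to falling oxygen and rising carbon dioxide and to release transmitters that act on the neurons that drive breathing. Astrocytes of different brain regions keep different transcription factors from the embryonic neural tube, and they differ in Gfap, the intermediate filament protein that is often used as their marker.

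All mice were wild-type C57BL6/J males, weaned at postnatal day 21 and exposed from day 22 to day 43. In the CIH group, nitrogen was run in for 60 seconds until oxygen in the chamber stood at 4.5 to 5%, and air then brought it back to 21% within up to 5 minutes, 80 times a day over 8 hours for 21 days. The normoxia group stayed in room air for the same days. Nuclei came from frozen brainstem, were sorted on a nuclear dye and were sequenced with the 10x Genomics 3' chemistry. The number of mice behind each library is not given in the labels, so every p-value rests on the spread from library to library, which may be technical.

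The libraries held 26733243 to 46754345 UMIs each. The astrocytes gave 183620, 254703 and 1437089 UMIs in CIH and 238008, 279330 and 253120 UMIs in normoxia, with a median of 2661 to 4076 UMIs per nucleus in CIH and 2512.5 to 3296 in normoxia. CIH library 3 thus gave more astrocyte UMIs than all the other libraries together, and its astrocytes carried a median of 0.387% mitochondrial UMIs, against 0.0941% to 0.188% in the other 5 libraries. CIH library 1 and normoxia library 2 shared 1563 barcodes, while the other pairs of libraries shared 3 to 38. In the shared barcodes CIH library 1 had a median of 7.92 times the UMIs of normoxia library 2, with 7.18 and 8.74 as the 5th and 95th percentiles. Among them were 22 of the 46 astrocytes of CIH library 1 and 3 of the 75 astrocytes of normoxia library 2, and those 3 barcodes counted as astrocytes in both. Without the shared barcodes of normoxia library 2, 840 astrocytes remained. In CIH library 2, 1 nucleus of 21660 UMIs held 267 UMIs of ependymal marker genes, against at most 9 in any astrocyte of the other libraries. Below, nuclei with ependymal UMIs means those with at least 5 such UMIs, 1 each in CIH library 2, CIH library 3 and normoxia library 1. Astrocytes with fewer such UMIs were never left out for them.

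The markers that the rule did not use followed the label in these nuclei. Of 27 further astrocyte markers, 26 stood above the remaining kept nuclei in all 6 libraries, and 23 were more than 5-fold above them by the median over libraries. The exception was Slc13a5, a citrate transporter, which had no UMI in CIH library 2. Fgfr3, a receptor for fibroblast growth factors, was a median 139-fold above the remaining nuclei, Acsbg1, an enzyme that activates fatty acids, 125-fold, and Sox9, a transcription factor of glial fate, 73.0-fold. Gfap was a median 49.2-fold above them. From library to library the folds ran from 23.2 to 160 for Fgfr3 and from 25.5 to 165 for Acsbg1. They ran from 13.4 to 95.9 for Sox9 and from 8.61 to 75.8 for Gfap. The lowest fold of each gene was that of CIH library 3, which gave 497 of the 843 astrocytes. The values are a description, since the nuclei were chosen by genes that go with these markers.

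Of a list of 42 genes that record position along the neural tube, 38 had a UMI, 3747 UMIs in all, led by Meis2 with 997. Only some members of this list are given here. Otx1, a factor of the forebrain and midbrain, had no UMI in any of the 843 nuclei, and the list of 5 genes of telencephalic astrocytes had 36 UMIs in all, 31 of them from Mfge8. Of 18 Hox genes, which mark the hindbrain and spinal cord, 16 had at least 1 UMI, and 5 had a UMI in every library. They had 279 UMIs in all, led by Hoxa3 with 47, Hoxc4 with 46 and Hoxd3 with 30. Hoxc6 and Hoxc8, which mark the spinal cord, had none. Pax3, a factor of the dorsal neural tube, stood at 155, 283 and 164 CPM in CIH against 214, 261 and 143 CPM in normoxia, where CPM, the usual depth-scaled count, gives UMIs relative to the scaled astrocyte total of the library. The 6 markers of the Bergmann glia of the cerebellum had 3467 UMIs, 2799 of them from the AMPA receptor gene Gria1, and summed to 1331 to 1559 CPM in CIH and 1378 to 1965 CPM in normoxia, against 277 to 328 CPM in the remaining kept nuclei. The 10 markers of granule neurons summed to 3691 to 5638 CPM in the astrocytes, against 2816 to 5365 CPM in the remaining nuclei, and 10869 of their 11461 UMIs came from the potassium channel gene Kcnd2. Mural markers summed to 125 to 238 CPM in the astrocytes, against 32.4 to 99.7 CPM in the remaining nuclei. The 12 oligodendrocyte markers summed to 966 to 2321 CPM in CIH astrocytes and to 972 to 1776 CPM in normoxia astrocytes, against 20905 to 23099 CPM in the oligodendrocytes of these libraries. The scales of these sums differ. Astrocyte sums are relative to the scaled total of the genes tested, 159291 of the 183620 astrocyte UMIs in CIH library 1 before scaling. Sums of the remaining nuclei and of oligodendrocytes are relative to all their UMIs. On that scale the astrocyte sums would be lower than given here.

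**Figure D1:**
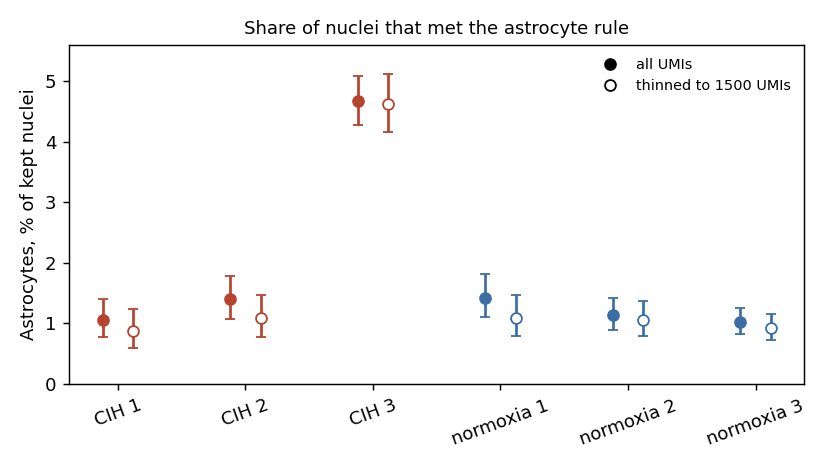
Share of kept nuclei that met the astrocyte rule, in percent, for each library, with exact 95% binomial intervals that cover counting error only. Filled points use all UMIs and open points use only nuclei with at least 1500 UMIs, thinned to 1500. With all UMIs, CIH library 3 stands at 4.67% and the other 5 libraries between 1.02% and 1.43%.

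Astrocytes made up 1.06%, 1.39% and 4.67% of kept nuclei in CIH, against 1.43%, 1.13% and 1.02% in normoxia. The groups overlapped, and CIH library 3 alone lay outside the range of the rest. The mean share was 2.37% ± 2.00 in CIH and 1.19% ± 0.208 in normoxia (SD, n = 3 each), a difference of 1.18 percentage points with p = 0.5 in a two-sided exact permutation test, which cannot go below 0.1 in this design. Without CIH library 3, the CIH share was 1.23% ± 0.238 and the difference 0.0316 points (exact p = 1). Among kept nuclei with at least 1500 UMIs, each thinned to 1500, the shares were 0.877%, 1.08% and 4.62% in CIH and 1.09%, 1.05% and 0.921% in normoxia. Nuclei with fewer UMIs were left out, so that 7677 of 10643 remained in CIH library 3 and 4039 of 4698 in normoxia library 1. Kept nuclei outside the rule also held more RNA of astrocyte markers in CIH library 3. There the 27 further astrocyte markers summed to 2348 CPM, against 1235 to 1310 CPM in the rest of the libraries. The part of this in the share was not tested. The oligodendrocyte share, for comparison, was 23.1% ± 1.47 in CIH and 25.9% ± 3.97 in normoxia (SD, n = 3 each, exact permutation p = 0.4).

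The effect of CIH on astrocyte RNA was tested next, with UMIs summed over the astrocytes of each library. No gene passed an adjusted p of 0.05 among 4566 genes tested with edgeR's quasi-likelihood test (0% called), and DESeq2 called none either. At an unadjusted p under 0.05 there were 253 genes (5.54%), 163 higher (3.57%) and 90 lower (1.97%) in CIH, and DESeq2 gave 95. The 2 groups of libraries did not overlap for 471 genes (10.3%), with all CIH libraries above for 229 (5.02%) and below for 242 (5.3%). With no filter on low counts 34 genes passed, among them Hsp90aa1 (edgeR adjusted p = 3.15e-05), mt-Co1 (edgeR adjusted p = 2.52e-05), Uqcr11 and Csmd1. When the nuclei with ependymal UMIs were left out as well, 14 passed, among them mt-Co1, Hsp90aa1 and Gnas (edgeR adjusted p = 0.0439 for each of the last 2), while Csmd1 did not pass (edgeR adjusted p = 0.575). The values that follow are levels and their spread, and none of them is a called change in the main fit. With the filter in place and median depth as a covariate, mt-Co1, mt-Co3 and Actb passed.

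Among genes with lower levels in CIH, Vegfa (chr17:46016993-46032369, minus strand, mm10), the secreted growth factor of blood vessels and a target of hypoxia-inducible factors, stood at 213, 264 and 250.2 CPM in CIH against 331, 343 and 453 CPM in normoxia. Every CIH library lay below every normoxia library, with a log2 fold change of -0.62 (SE 0.19, edgeR adjusted p = 0.83). Kcnj16 (chr11:110968033-111027968, plus strand), which encodes the Kir5.1 potassium channel subunit that makes channels sensitive to pH, stood at 32.2, 54.7 and 64.6 CPM in CIH against 122, 86.8 and 125 CPM in normoxia. These groups did not overlap either, and the log2 fold change was -0.98 (SE 0.30, edgeR adjusted p = 0.83). Wsb1, part of a ubiquitin ligase, had the smallest p of the lower genes, with 129, 114 and 115 CPM in CIH against 209, 239.9 and 217 CPM in normoxia and no overlap. Its log2 fold change was -0.91 (SE 0.20, edgeR adjusted p = 0.649). Sat1, which acetylates polyamines for their breakdown, stood at 335, 310.0 and 285 CPM in CIH against 564, 443 and 476 CPM in normoxia, and Atp6ap1, an accessory subunit of the proton pump of lysosomes, at 32.2, 31.9 and 29.9 CPM in CIH against 72.9, 62.0 and 60.1 CPM in normoxia. Neither gene's groups overlapped, and the log2 fold changes were -0.69 (SE 0.18) and -1.07 (SE 0.33). The Atp6ap1 levels of CIH libraries 1 and 2 rest on 5 and 7 UMIs.

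Among genes with higher levels in CIH, Eya1 (chr1:14168954-14310235, minus strand), a phosphatase and transcription cofactor of development, stood at 142, 109 and 88.0 CPM in CIH against 38.9, 33.1 and 55.5 CPM in normoxia. Its groups did not overlap, and the log2 fold change was 1.32 (SE 0.33, edgeR adjusted p = 0.649). Uqcr11, a subunit of respiratory complex III, had 58.0, 86.6 and 82.3 CPM in CIH against 29.2, 12.4 and 27.8 CPM in normoxia. Rpl22l1, a ribosomal protein paralog, had 51.5, 50.1 and 56.5 CPM in CIH against 14.6, 12.4 and 18.5 CPM in normoxia. Both had groups apart, with log2 fold changes of 1.77 (SE 0.38) and 1.82 (SE 0.42), on levels that rest on few UMIs in the small libraries, where 1 UMI is worth up to 6.44 CPM. Gnas, which encodes the stimulatory G protein subunit that raises cyclic AMP, had 361, 351 and 375 CPM in CIH against 263, 153 and 194 CPM in normoxia. Csmd1, a large membrane protein with complement-control domains, had 277, 479 and 429 CPM in CIH against 199, 190.2 and 249.8 CPM in normoxia. The groups of these genes did not overlap, and their log2 fold changes were 0.85 (SE 0.21) and 0.92 (SE 0.22).

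**Figure D2:**
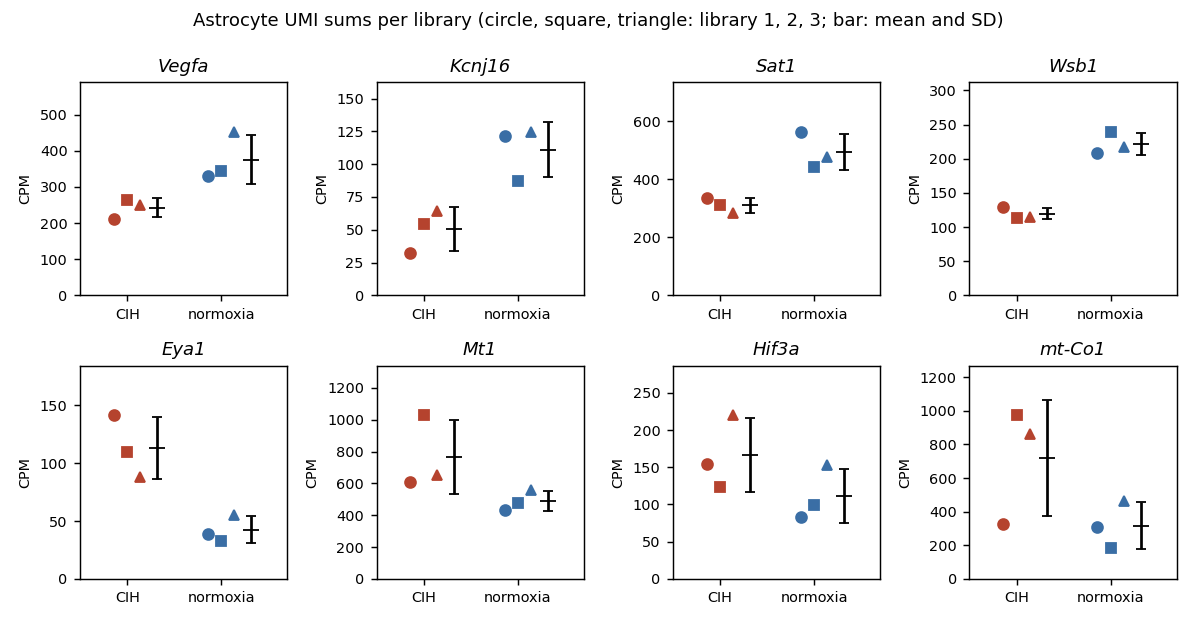
Levels in CPM of 8 genes in the astrocyte sums of each library, CIH in red and normoxia in blue, with the mean and SD of each group as a bar. CIH libraries lie below all normoxia libraries for Vegfa, Kcnj16, Sat1 and Wsb1 and above them for Eya1 and Mt1, while the groups overlap for Hif3a and mt-Co1.

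No gene for the transport work of astrocytes passed the test. Slc4a4, the sodium bicarbonate cotransporter, stood at 5116, 4121 and 4561 CPM in CIH against 4201, 4425 and 4805 CPM in normoxia, and Gjb6, a connexin that opens to carbon dioxide, at 155, 246 and 197 CPM in CIH against 195, 215 and 189.6 CPM in normoxia. Both overlapped. Kcnj10, the Kir4.1 channel that clears potassium and pairs with Kcnj16, had 251, 287 and 395 CPM in CIH against 311, 401 and 458 CPM in normoxia, with overlap and a log2 fold change of -0.27 (SE 0.21). Of 9 measured genes for carbon dioxide and pH, 4 were higher and 5 lower in CIH (median log2 fold change -0.20). Over all genes tested outside the rule the median was 0.01, and 51.6% of all genes tested lay above 0. These counts over lists give directions of fitted values, not calls. Of 17 genes for potassium, water and coupling, 10 were higher and 7 lower (median 0.02). Among them Kcnk1, a potassium leak channel, had 96.6, 150.4 and 157 CPM in CIH against 179.9, 215 and 167 CPM in normoxia, while Lrrc8a, a subunit of volume-regulated anion channels, had 83.8, 95.7 and 98.5 CPM in CIH against 72.9, 66.2 and 55.5 CPM in normoxia. Neither gene's groups overlapped, and the edgeR adjusted p was 0.916 and 0.9.

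Glutamate genes split evenly, with 5 of 9 higher and 4 lower in CIH (median log2 fold change 0.04). Glul, the glutamine synthetase that turns glutamate into glutamine, had 296, 438 and 456 CPM in CIH against 272, 289 and 338 CPM in normoxia, an overlap by 1 library, with a log2 fold change of 0.44 (SE 0.20, edgeR adjusted p = 0.889). Slc1a3, the GLAST transporter, had 1179, 583 and 709 CPM in CIH against 788, 637 and 661 CPM in normoxia. The genes of the selection rule are given as levels only: Slc1a2, the main glutamate transporter, stood at 3615, 3651 and 4489.7 CPM in CIH against 4026, 4417 and 4259.7 CPM in normoxia. Aqp4 stood at 773, 661 and 477 CPM in CIH against 700.2, 823 and 679.9 CPM in normoxia. Slc7a10, the transporter of D-serine and glycine, stood at 496, 438 and 503 CPM in CIH, each below the 661, 658 and 532 CPM in normoxia. Of the 27 astrocyte markers outside the rule 25 were tested, and 11 were higher and 14 lower (median -0.07).

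Of 14 measured hypoxia-inducible factors and targets, 5 were higher and 9 lower in CIH (median log2 fold change -0.02), and none passed the test. Hif1a, whose protein is the oxygen-regulated subunit of the factor, stood at 264, 169 and 249 CPM in CIH against 156, 252 and 296 CPM in normoxia. Epas1, which encodes HIF-2 alpha, stood at 232, 109 and 113 CPM in CIH against 122, 124 and 171 CPM in normoxia, and Slc2a1, the glucose transporter GLUT1, at 77.3, 72.9 and 74.3 CPM in CIH against 77.8, 78.6 and 64.8 CPM in normoxia. The groups overlapped for all 3 genes. Hif3a (chr7:17031507-17062427, minus strand), a family member that can oppose the other factors and that glucocorticoids induce, had 155, 123 and 220.3 CPM in CIH against 82.7, 99.3 and 153 CPM in normoxia, with overlap. Its log2 fold change was 0.67 (SE 0.28, edgeR adjusted p = 0.879) and 0.29 without CIH library 3. Ldha, lactate dehydrogenase A, and Pdk1, which blocks pyruvate entry into mitochondria, were too low to be tested, at 0 to 29.9 and 12.9 to 33.9 CPM in CIH against 14.6 to 41.6 and 16.5 to 32.4 CPM in normoxia. Of 26 genes for glycogen, glycolysis and lactate, 13 were higher and 13 lower. Aldoc, the aldolase of astrocytes, had 348, 552 and 503 CPM in CIH against 408, 347 and 296 CPM in normoxia (log2 fold change 0.44, SE 0.20), and Gapdh had 103, 187 and 319 CPM in CIH against 122, 153 and 176 CPM in normoxia. The Gapdh log2 fold change was 0.59 (SE 0.31) with all libraries and -0.02 without CIH library 3.

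Mitochondrially encoded genes, metallothioneins and chaperones were mostly on the higher side, without a call in the main fit. All 8 measured mitochondrially encoded genes were higher in CIH, with a median log2 fold change of 0.82 that ran from 0.49 without CIH library 2 to 1.17 without normoxia library 3. mt-Co1, a subunit of cytochrome c oxidase, had 329, 976 and 859.5 CPM in CIH against 306, 182 and 463 CPM in normoxia, so CIH library 1 lay within the normoxia range. The log2 fold change was 1.23 (SE 0.34, edgeR adjusted p = 0.83), and 1.03 without the nuclei with ependymal UMIs. The median mitochondrial share of astrocytes was 0.143% to 0.387% in CIH and 0.0941% to 0.181% in normoxia. The part of this share in these and the other values was not tested. The 3 metallothioneins, small proteins that bind zinc and copper, were all higher, with a median of 0.55 that ran from 0.33 without CIH library 2 to 0.66 without CIH library 3. Mt1 (chr8:94179082-94180327, plus strand) had 606, 1030.2 and 655 CPM in CIH against 433, 476 and 559.6 CPM in normoxia, and Mt3, the brain form, had 258, 415 and 278 CPM in CIH against 248, 186 and 213 CPM in normoxia. Neither overlapped, with log2 fold changes of 0.64 (SE 0.21, edgeR adjusted p = 0.83) and 0.55 (SE 0.22, edgeR adjusted p = 0.859). Mt2 overlapped, at 142, 232 and 135 CPM in CIH against 146, 153 and 139 CPM in normoxia.

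Of 11 chaperone and unfolded protein genes, 8 were higher and 3 lower in CIH (median log2 fold change 0.29, 0.16 without CIH library 3). Hsp90aa1, the inducible Hsp90, had 77.3, 337 and 191 CPM in CIH against 72.9, 45.5 and 87.9 CPM in normoxia, with a log2 fold change of 1.59 (SE 0.40, edgeR adjusted p = 0.649) that was 1.17 without the nuclei with ependymal UMIs. Of 11 redox genes, 7 were higher and 4 lower (median 0.25, 0.17 without CIH library 3). Glucocorticoid-responsive genes were higher in 11 of 13 cases, but their median log2 fold change of 0.27 with all libraries was 0.02 without CIH library 3. Tsc22d3, the glucocorticoid-induced leucine zipper, had 251, 141 and 208 CPM in CIH against 122, 108 and 148 CPM in normoxia (log2 fold change 0.67, SE 0.24). Fkbp5, a co-chaperone of the glucocorticoid receptor, was below the filter, with 6.44, 18.2 and 101 CPM in CIH against 4.86, 16.5 and 18.5 CPM in normoxia, so that CIH library 3 alone stood out. In fits with no filter on low counts its log2 fold change was 2.16 to 2.19, and its lowest edgeR adjusted p was 0.00984. Marker sums of other cell types lay on both sides. The endothelial marker sum was 116 to 137 CPM in CIH against 19.5 to 95.1 CPM in normoxia, with 8 of 8 genes higher in CIH and most of the sum from Mecom. Of the 12 oligodendrocyte markers, 10 had a higher mean in CIH, and the 6 that were tested had a median log2 fold change of 0.68, which was 0.07 without CIH library 3. The neuron marker sum was 522 to 876 CPM in CIH against 306 to 791 CPM in normoxia. The mean sum was lower in CIH for Bergmann glia (1451 CPM in CIH, 1691 CPM in normoxia), oligodendrocyte precursors (966 CPM in CIH, 1045 CPM in normoxia) and microglia (118 CPM in CIH, 129 CPM in normoxia). Their part in the differences was not tested.

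**Figure D3:**
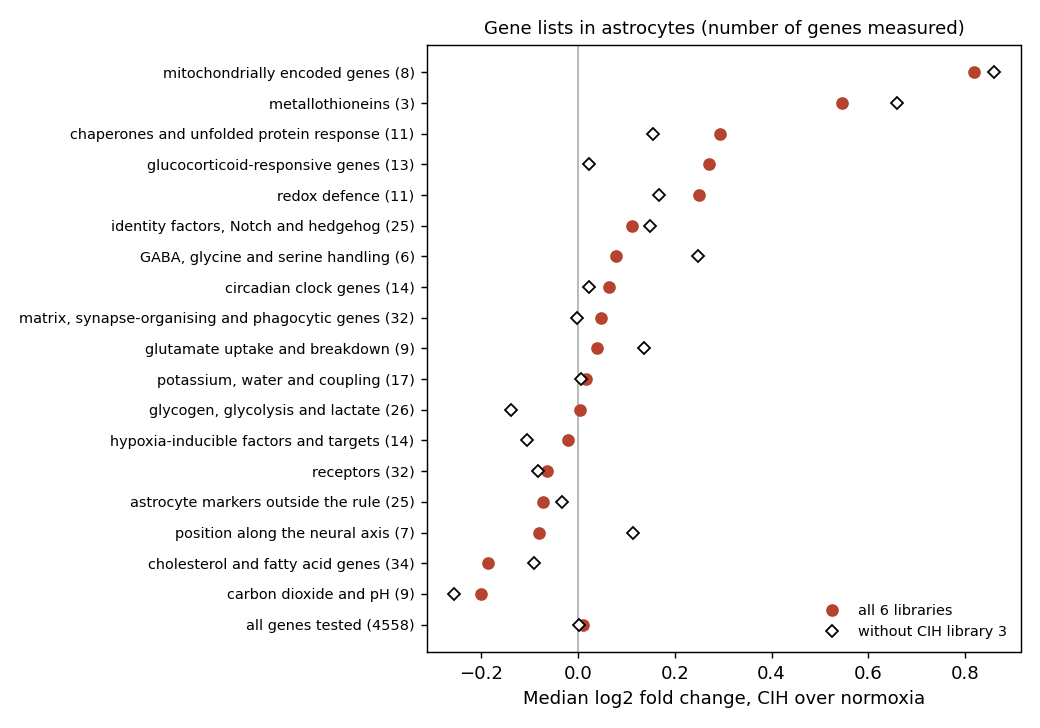
Median log2 fold change, CIH over normoxia, of the measured genes of each list in astrocytes, with the number of genes in parentheses. Filled points use all 6 libraries and open diamonds leave out CIH library 3, and mitochondrially encoded genes (0.82) and metallothioneins (0.55) have the highest medians, and the median over all genes is 0.01.

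Lipid genes were mostly on the lower side, with 26 of 34 lower and 8 higher in CIH (median log2 fold change -0.19, -0.09 without CIH library 3). Elovl5, which lengthens unsaturated fatty acids, had 45.1, 72.9 and 88.0 CPM in CIH against 92.4, 132 and 125 CPM in normoxia, with no overlap (log2 fold change -0.63, SE 0.28). Hmgcs1, an early enzyme of cholesterol synthesis, had 122, 164 and 136 CPM in CIH against 263, 232 and 125 CPM in normoxia, with overlap. Of 32 receptor and receptor-pathway genes, 13 were higher and 19 lower (median -0.06). Gabra2, a GABA-A receptor subunit, had 612, 579 and 666 CPM in CIH against 958, 786 and 837 CPM in normoxia, and Ednrb, the endothelin B receptor, had 206, 178 and 238 CPM in CIH against 282, 281 and 287 CPM in normoxia. The groups of both genes were apart, with log2 fold changes of -0.46 (SE 0.16) and -0.41 (SE 0.19). Ryr3, a calcium release channel, had 25.8, 4.56 and 54.1 CPM in CIH against 63.2, 108 and 111 CPM in normoxia, which in CIH library 2 is 1 UMI. Its log2 fold change was -1.30 (SE 0.44) and -2.76 without CIH library 3. Grm8, a glutamate receptor that lowers cyclic AMP, had 51.5, 77.5 and 109.8 CPM in CIH against 14.6, 45.5 and 55.5 CPM in normoxia (log2 fold change 1.18, SE 0.40, and 0.74 without CIH library 3).

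Of 25 transcription factor and Notch or hedgehog genes, 18 were higher and 7 lower (median log2 fold change 0.11). Sox2, a factor of neural stem cells and astrocytes, had 25.8, 54.7 and 52.5 CPM in CIH against 102, 74.4 and 83.3 CPM in normoxia, with no overlap and a log2 fold change of -0.84 (SE 0.32, edgeR adjusted p = 0.833). It had 4 and 12 UMIs in CIH libraries 1 and 2. It lies inside Sox2ot on the same strand, and Sox2ot had 354, 296 and 387 CPM in CIH against 457, 513 and 370.0 CPM in normoxia. Matrix, synapse-organising and phagocytic genes were higher in 21 of 32 cases (median 0.05) and clock genes in 9 of 14 (median 0.06). Genes for GABA, glycine and serine were higher in 3 of 6 cases (median 0.08).

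Few genes of reactive astrocytes were abundant enough to test. Of 40 genes of reactive astrocytes, 2 passed the filter. Gfap had 245, 119 and 174 CPM in CIH against 277, 285 and 213 CPM in normoxia, with overlap and a log2 fold change of -0.57 (SE 0.24, edgeR adjusted p = 0.879), which was 0.64 under stricter marker thresholds. Stat3, a transcription factor that drives reactivity, had 83.8, 59.3 and 87.2 CPM in CIH against 87.5, 108 and 102 CPM in normoxia, with the groups apart by a narrow gap (log2 fold change -0.32, SE 0.27). Vim, the intermediate filament vimentin, was at 12.1 to 63.8 CPM in CIH against 8.27 to 29.2 CPM in normoxia, and Serpina3n, a protease inhibitor of reactive astrocytes, at 0 to 5.65 CPM in CIH against 0 to 9.25 CPM in normoxia. H2-K1, a class I histocompatibility gene named after its values were seen, had 38.7, 50.1 and 29.9 CPM in CIH against 9.73, 16.5 and 9.25 CPM in normoxia and was below the filter. None of 24 immediate early genes, which neuronal or glial activity switches on, passed the filter, and Fos had no UMI in 3 of 6 libraries.

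Whether CIH acted differently on astrocytes than on oligodendrocytes was tested on the difference in log2 CPM between the cell types within a library. The 9562 oligodendrocytes had at least 3 UMIs of Mog and Mag together and at most 1 of the 6 summed astrocyte genes of the rule. They also had at most 2 of Slc1a2, fewer than 8 of Meg3 and at most 1 of Flt1. Nuclei with more UMIs of these astrocyte genes were thus left out. No gene passed among 4423 tested with limma (0% called), while 210 had an unadjusted p under 0.05 (4.75%). The smallest adjusted p-values were those of Gli2 and Hif3a, whose levels in astrocytes overlapped between the groups and whose levels in oligodendrocytes did not.

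Gli2, the activating transcription factor of the hedgehog pathway, had 296, 237 and 311 CPM in CIH astrocytes and 272, 294 and 259 CPM in normoxia astrocytes. In oligodendrocytes it had 9.08, 8.56 and 31.5 CPM in CIH against 1.02, 2.17 and 0.730 CPM in normoxia. The effect in astrocytes minus that in oligodendrocytes was -3.29 on the log2 scale (SE 0.431, limma adjusted p = 0.0582). For Hif3a the oligodendrocyte levels were 15.5, 14.5 and 22.6 CPM in CIH against 3.26, 2.35 and 2.74 CPM in normoxia, a log2 fold change of 2.67 within oligodendrocytes (SE 0.26, edgeR adjusted p = 0.0325), while that of Gli2 was 3.68 (SE 0.64, edgeR adjusted p = 0.166) and did not pass. The difference in effect was -1.99 (SE 0.286, limma adjusted p = 0.0644). Without CIH library 3, 4 genes passed, namely Gli2 (-2.74, limma adjusted p = 0.00305), Hif3a (-2.01, limma adjusted p = 0.0422), Eya1 and Prex2, and 1 gene passed without CIH library 1, without normoxia library 1 or without the shared barcodes. In other alternatives the limma adjusted p was as high as 0.390 for Gli2, 0.749 for Hif3a and 0.999 for Eya1. Astrocyte marker UMIs were also counted in oligodendrocyte nuclei, where the 27 astrocyte markers outside the rule summed to 1504, 1477 and 2217 CPM in CIH against 1416, 1366 and 1340.0 CPM in normoxia. All 3 CIH sums were the higher ones, and their part in the oligodendrocyte levels was not tested. The sums are not of astrocyte RNA alone, since they include Glul and Daam2. In CIH library 3 these were detected in 66.4% and 77.1% of oligodendrocytes, against 61.4% and 59.6% of astrocytes. Sox9, by contrast, was detected there in 1.14% of oligodendrocytes and 17.1% of astrocytes. Eya1 had the largest higher difference among the genes of smallest p, at 1.87 (SE 0.476, limma adjusted p = 0.822), and 4.68, 2.14 and 7.81 CPM in CIH oligodendrocytes against 5.50, 6.86 and 6.39 CPM in normoxia oligodendrocytes.

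**Figure D4:**
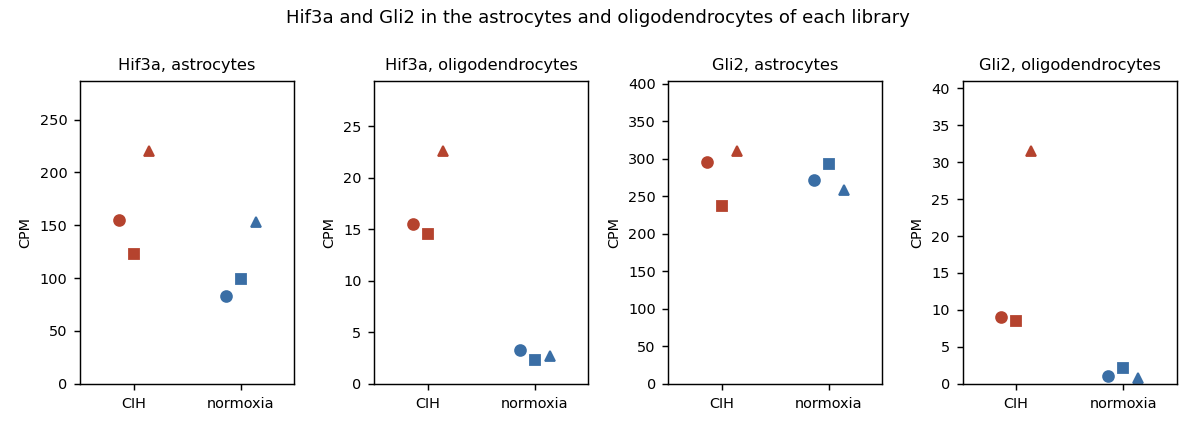
Hif3a and Gli2 in CPM in the astrocyte and oligodendrocyte sums of each library, CIH in red and normoxia in blue, each panel with its own axis from 0. In oligodendrocytes all CIH libraries lie above all normoxia libraries for both genes, and in astrocytes the groups overlap.

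How the astrocytes varied among themselves was read from Gfap, which the rule did not use. At least 1 Gfap UMI was found in 153 of the 843 nuclei, 75 of them with exactly 1. The share was 19.6%, 21.0% and 17.1% in CIH, against 19.4%, 25.3% and 14.6% in normoxia, a mean of 19.2% ± 1.96 in CIH and 19.8% ± 5.38 in normoxia (SD, n = 3 each, exact permutation p = 1). The groups overlapped, also after thinning to 1500 UMIs (10.9% ± 2.12 in CIH and 11.6% ± 3.22 in normoxia, exact p = 0.9).

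Astrocytes with a Gfap UMI differed from those without in many genes. They were richer in Cd44, St6galnac3, Clu, Apoe, Id4, Mt1 and Mt2. They were poorer in the glutamate receptor genes Gria2, Gria4 and Grm5, in the adhesion genes Kirrel3, Lsamp and Negr1, and in Vegfa. With each library as a block, 192 of 2977 genes passed an adjusted p of 0.05 in edgeR's quasi-likelihood test (6.45%), 107 higher (3.59%) and 85 lower (2.86%) in Gfap-detected nuclei. Of the 107, 77 were higher in all 6 libraries, which held for 5.61% of all genes tested, and of the 85, 79 were lower in all 6, which held for 6.89%. The count of Gfap itself made the split, and Gfap was not tested.

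Among the genes that rose with Gfap, St6galnac3 (chr3:153198266-153725174, minus strand), a sialyltransferase, stood at 677, 647 and 676 CPM in Gfap-detected nuclei of the CIH libraries and 854, 484 and 489 CPM in those of the normoxia libraries. In Gfap-undetected nuclei it stood at 129, 164 and 106 CPM in CIH against 129, 74.8 and 92.7 CPM in normoxia. The values did not overlap, and the log2 fold change was 2.49 (SE 0.19, edgeR adjusted p = 2.24e-08). Cd44 (chr2:102811141-102901665, minus strand), the hyaluronan receptor that marks fibrous astrocytes, stood at 161, 133 and 154 CPM with Gfap in CIH and 159, 156 and 228 CPM with Gfap in normoxia. Without Gfap it stood at 18.5, 21.4 and 15.2 CPM in CIH against 7.56, 12.5 and 12.4 CPM in normoxia, again with no overlap (log2 fold change 3.39, SE 0.34, edgeR adjusted p = 9.67e-07). Slc38a1, a glutamine transporter, averaged 755 ± 311 CPM with Gfap and 151 ± 111 CPM without (SD, n = 6 libraries, log2 fold change 2.45), and Grm7, a glutamate receptor coupled to inhibitory G proteins, 708 ± 296 CPM with Gfap and 112 ± 62.9 CPM without (log2 fold change 2.55). Prune2 rose by 2.50, the calcium channel subunit Cacnb2 by 1.93, the protease inhibitor A2m by 2.80 and the catenin Ctnna2 by 1.25 on the log2 scale, each higher in 6 of 6 libraries. The unannotated transcript 6330411D24Rik had the largest value of this set, 4.87 (SE 0.32, edgeR adjusted p = 1.63e-09).

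Carriers of lipid also rose. Apoe, the main apolipoprotein of the brain, averaged 3028 ± 1342 CPM with Gfap and 1271 ± 215 CPM without (SD, n = 6), higher in 6 of 6 libraries with a log2 fold change of 1.17 (SE 0.17, edgeR adjusted p = 0.000123), and Clu, clusterin, averaged 577 ± 129 CPM with Gfap and 205 ± 61.4 CPM without (log2 fold change 1.46, SE 0.22, edgeR adjusted p = 0.000163). Of 24 measured cholesterol and fatty acid genes these were the 2 that rose, and 0 fell. Of the 3 metallothioneins, Mt1 rose by 1.29 (SE 0.21) and Mt2 by 1.28 (SE 0.23), each in 6 of 6 libraries, and Mt3 did not pass. Id3 and Id4, which block transcription factors that drive neuronal differentiation, rose by 1.07 (SE 0.29) and 1.48 (SE 0.23), though Id3 passed in only 4 of the 8 alternatives that measured it, at 1.56 in the CIH libraries alone and 0.44 in the normoxia libraries alone. Bmpr1b, a receptor for the bone morphogenetic proteins that induce Id genes, rose by 0.80 (SE 0.16). Ednrb, the endothelin B receptor, rose by 0.90 (SE 0.20), but passed in only 6 of 9 alternatives and not after thinning (edgeR adjusted p = 0.179).

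Among the genes that fell with Gfap, Gpc5 (chr14:115092215-116525179, plus strand), a heparan sulfate proteoglycan of astrocyte membranes, stood at 3965, 6033 and 5415 CPM with Gfap in CIH and 5543, 7592 and 5934 CPM with Gfap in normoxia. Without Gfap it stood at 10426, 10295 and 11803 CPM in CIH against 11201, 14468 and 12354 CPM in normoxia. The values did not overlap, and the log2 fold change was -1.04 (SE 0.11, edgeR adjusted p = 1.08e-06). Kirrel3 (chr9:34485894-35036716, plus strand), a cell adhesion protein, averaged 1450.1 ± 169 CPM with Gfap and 3061 ± 241 CPM without (SD, n = 6, log2 fold change -1.09). It was lower with Gfap in 6 of 6 libraries. Negr1 fell by 0.77 and Lsamp by 0.61 on the log2 scale, each lower in 6 of 6 libraries. Of 28 measured matrix, synapse-organising and phagocytic genes, 6 fell, with Gpc5, Lsamp and Ptprz1 among them, and 2 rose (Tnr and Epha5). Of those that fell, Ptprz1 and Lrrc4c passed in only 4 of 9 alternatives each and Cdh10 in 3. Epha5 passed in 5 of the 8 alternatives that measured it. Tnr was higher in only 4 of 6 libraries and did not pass without the nuclei with ependymal UMIs (edgeR adjusted p = 0.119).

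Of 28 measured receptor genes, 7 fell and 2 rose. Gria4, an AMPA receptor subunit, stood at 322, 305 and 526 CPM with Gfap in CIH and 497, 346 and 848 CPM with Gfap in normoxia. Without Gfap it stood at 2242, 912 and 1194 CPM in CIH against 1316, 1041 and 1311 CPM in normoxia, with no overlap and a log2 fold change of -1.45 (SE 0.20, edgeR adjusted p = 5.78e-05). Gria2 fell by 1.49 (SE 0.21), the metabotropic receptor Grm5 by 1.31 (SE 0.21) and the adenosine kinase Adk by 0.82 (SE 0.19). The calcium channel of the endoplasmic reticulum Itpr2 fell by 0.80 (SE 0.20), Gria1 by 0.68 (SE 0.18) and the neuregulin receptor Erbb4 by 0.58 (SE 0.12). Each of these genes was lower in 6 of 6 libraries. Itpr2 passed in only 5 of 9 alternatives, Gria1 in 6 and Adk and Erbb4 in 7 each. After thinning to 1500 UMIs, Itpr2, Gria1 and Adk did not pass (edgeR adjusted p = 0.134, 0.182 and 0.399). The voltage-gated potassium channel gene Kcnd2 fell by 0.87 (SE 0.14) and Ptch1, the hedgehog receptor, by 0.94 (SE 0.19). Vegfa, which was also lower in every CIH library, averaged 187 ± 79.5 CPM with Gfap and 394 ± 104 CPM without (SD, n = 6, log2 fold change -1.13, SE 0.21, edgeR adjusted p = 0.00127). Gfap-detected nuclei of each library held less Vegfa than the Gfap-undetected nuclei of the same library.

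In other lists the calls were few, and are to be read against the 3.59% of all genes called higher and 2.86% called lower. Of 24 astrocyte markers measured, Apoe and Clu rose and Gpc5 and the inter-alpha-inhibitor Itih3 fell, Itih3 in only 4 of 9 alternatives. Of 20 genes for glycogen, glycolysis and lactate, the glycogen phosphorylase Pygm and the phosphofructokinase Pfkp fell, but Pfkp passed in only 2 of 9 alternatives, and Pygm, lower in 5 of 6 libraries, in 3 of the 5 that measured it. Of 13 hypoxia genes Vegfa and Rora fell, each also in 8 of 9 alternatives. Among the genes of the rule, given as a description, Aqp4 was at 864 to 1603 CPM with Gfap and 312 to 480.2 CPM without, higher in 6 of 6 libraries. Slc6a11, the GABA transporter GAT-3, was at 347 to 615 CPM with Gfap and 803 to 1247 CPM without, and Slc7a10 at 194 to 424 CPM with Gfap and 449 to 687 CPM without, both lower in 6 of 6.

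**Figure D5:**
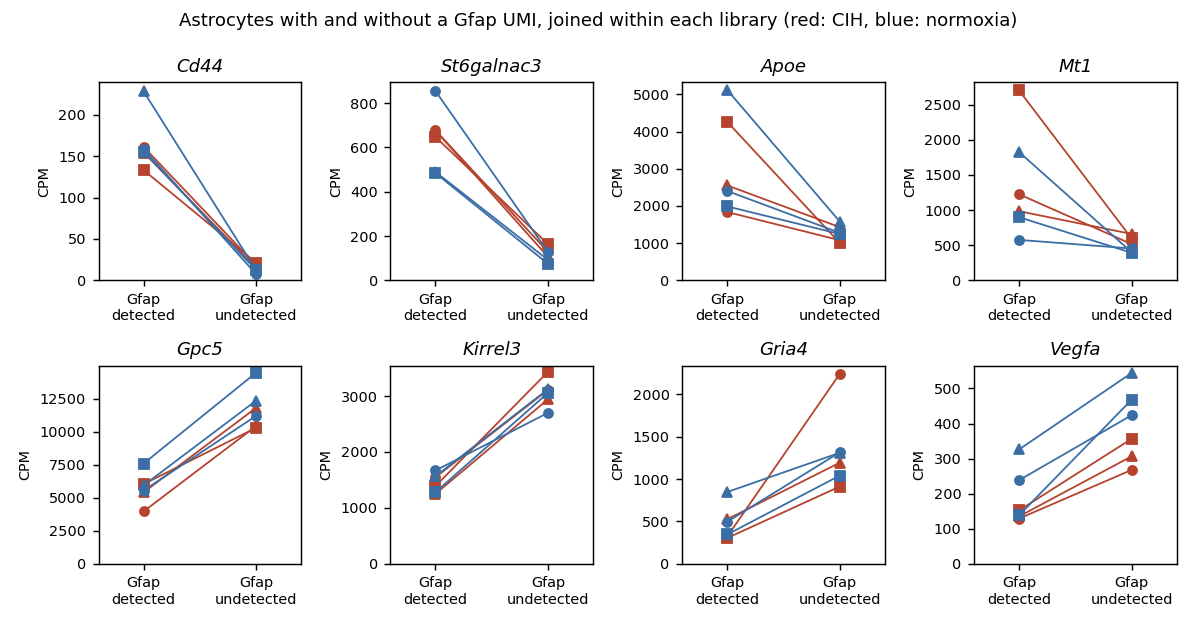
Levels in CPM of 8 genes in Gfap-detected (left) and Gfap-undetected (right) astrocytes, with lines that join the values of each library, CIH in red and normoxia in blue. Cd44, St6galnac3, Apoe and Mt1 are higher and Gpc5, Kirrel3, Gria4 and Vegfa lower with Gfap in all 6 libraries.

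Depth, mitochondrial share and marker sums of other cell types also differed along this split. The median UMIs per nucleus were 2689.5 to 4468 with Gfap and 2456.5 to 3999 without, higher with Gfap in every library. The median mitochondrial share was 0.0999% to 0.394% with Gfap and 0.0917% to 0.392% without, higher with Gfap in every library but CIH library 3. Of 8 measured mitochondrially encoded genes mt-Nd2 alone passed, higher with Gfap (log2 fold change 0.98, SE 0.29), in 6 of 9 alternatives. The oligodendrocyte marker sum was 835 to 3730 CPM with Gfap and 757 to 1913 CPM without, higher in 5 of 6 libraries. The ependymal marker sum was 38.7 to 3702 CPM with Gfap and 9.70 to 75.7 CPM without, and the highest value was that of CIH library 2, which held the single nucleus named above. The granule neuron marker sum was 1844 to 3501 CPM with Gfap and 3477 to 5121 CPM without, lower in 6 of 6 libraries, and Kcnd2, which fell, gave most of its UMIs. The neuron marker sum was lower with Gfap in 5 of 6 libraries, at 221 to 764 CPM with Gfap and 281 to 779 CPM without, and the oligodendrocyte precursor sum higher in 5 of 6, at 901 to 2063 CPM with Gfap and 520.3 to 1203 CPM without. These sums are relative to all UMIs of the nuclei, unlike the astrocyte sums given earlier. The part of these sums and of the mitochondrial share in the genes that rose or fell was not tested. After thinning to 1500 UMIs, which left out nuclei with fewer, 117 genes passed, 90 of them among the 192. Without the nuclei with ependymal UMIs 170 passed, 157 of them among the 192. 6330411D24Rik, St6galnac3, Cacnb2, Grm7, Slc38a1, Prune2, A2m, Ctnna2, Gpc5, Kirrel3, Gria4, Kcnd2, Clu and Apoe passed under each of 9 alternatives, and Cd44 and Id4 under each of the 8 in which they were measured.

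Whether the split differed between the groups was tested as an interaction. No gene passed for the difference between CIH and normoxia among 2986 tested with edgeR (0% called), and 82 had an unadjusted p under 0.05 (2.75%).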

How the data were processed

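Single nuclei of the pons and medulla were profiled in 6 libraries, 3 per group. The deposited files hold raw UMI counts per gene and barcode that the authors made with Cell Ranger, against mm10, per the submitters' processing notes, which name version 3.1.0 and Seurat 4.0; the file headers name cellranger 6.1.2. The astrocyte rule, the gene lists and the tests were chosen with earlier results of these data known.

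Counts were summed over the astrocytes of each library and tested with edgeR 4.0.16 (TMM scaling, filterByExpr, quasi-likelihood test, Benjamini-Hochberg threshold 0.05). Differences from oligodendrocytes were tested with limma 3.58.1 on within-library log2 CPM with a prior count of 1, and the Gfap split with each library as a block. Shares used exact permutation over the 20 assignments of 6 libraries, and Clopper-Pearson intervals at 95%, which cover counting error only. The fits were also run on counts drawn from their own kind of model, with means, library sizes and dispersions estimated from these libraries. Such counts hold no shared barcodes and no choice of nuclei, so that run cannot test the effect of either. Doublets were kept in the main fits, and leaving out the nuclei with the highest Scrublet scores was an alternative. Gene positions are from GENCODE vM21. Named genes were the genes of the rule and listed markers, the 8 of smallest p in each direction where few were called (up to 12 where called), up to 3 of smallest p, 2 of highest level and the members with groups apart in each list, a set list of hypoxia and reactive genes, the 5 of smallest p each way for the oligodendrocyte difference and 10 each way for the Gfap split. The text gives a selection of these, and some are not reported here. Alternatives were DESeq2 1.42.0, other filters, scaling, members and depths, and leaving out each library.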

Additional observations from a re-analysis of the deposited data

How the results depend on the processing

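For CIH against normoxia in astrocytes, the count of called genes was 0 under every alternative except 3. It was 34 with no filter on low counts, 14 with no filter and without the nuclei with ependymal UMIs, and 3 (mt-Co1, mt-Co3 and Actb) with median depth as a covariate. Leaving out ependymal nuclei was chosen after the data were seen. With the replicate number as a block edgeR gave 0 (274 at an unadjusted p under 0.05), and limma gave 0 (245) for the oligodendrocyte difference. The numbers were not taken as pairing the libraries, since deviations of same-numbered libraries correlated at 0.08, -0.11 and 0.20. The oligodendrocyte difference gave 1 call with the shared barcodes removed and 0 to 4 with single libraries left out. For the Gfap split, against 107 higher and 85 lower genes, thinning gave 58 higher, the CIH libraries alone 26 higher and 9 lower, the normoxia libraries alone 50 lower, and leaving out the third libraries 63 higher and 45 lower. Fewer libraries entered these last fits. Under stricter members the median log2 fold change was 0.0434 for astrocyte markers, -0.0248 for carbon dioxide and pH and 0.107 for chaperones, and that of Gfap was 0.64. With single libraries left out, medians ranged from -0.0778 to -0.0095 for astrocyte markers, from -0.0796 to 0.272 for glutamate genes, from 0.486 to 1.17 for mitochondrially encoded genes, from 0.331 to 0.659 for metallothioneins and from -0.13 to -0.0421 for receptors. Likewise Mt2 ranged from -0.0944 to 0.38 and Gapdh from -0.0191 to 0.809, and the difference in share from 0.0316 to 1.84 points. The cause of these shifts was not tested. Outside CIH library 3, 1 UMI is worth 4.14 to 6.44 CPM.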

Other observations

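The third libraries of both groups stood apart from the others in Grm5 and Slc38a1, which were picked after their values were seen. Grm5, a metabotropic glutamate receptor, had 532 CPM in astrocytes of CIH library 3 and 749 CPM in those of normoxia library 3, against 159.5 to 326 CPM in the other 4 libraries. Slc38a1, a glutamine transporter, had 149 CPM in CIH library 3 and 74.0 CPM in normoxia library 3, against 236 to 425 CPM in the other 4.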
